A study of Rattus norvegicus with 28 samples.

Results

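The genes described here are 9 rat genes that belong to the NRF2 response or to heme breakdown: Hmox1, Blvra, Nqo1, Gclc, Gclm, Txnrd1, Gstp1, Gsta3l1 and Gpx2. They were taken by gene symbol from the array's probe annotation, and all 9 were present, with 11 probe sets among 31042 tested, out of 14217 genes in all. A gene was read from its probe set of highest mean over the 28 arrays, and the second probe sets of Gclc and Txnrd1 are given beside them. Messenger RNA was measured in whole kidneys of female rats on 1-colour Affymetrix arrays, and the values are log2 RMA values, a scale that corrects background and equalises the distributions of the arrays. The 4 groups had 7 arrays each. They were SBH/y rats after removal of the right kidney (uninephrectomy), sham-operated SBH/y rats with both kidneys, SBN/y rats after right uninephrectomy, and sham-operated SBN/y rats with both kidneys. All were killed at 5 months of age, 4 months after the operation, on ordinary chow. SBH/y and SBN/y are inbred Sabra rats, the first known for salt-sensitive hypertension and proteinuria and the other for resistance to hypertension. The labels number the arrays of a group but do not say that each came from its own animal, so p-values measure the spread between these arrays.

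NRF2, encoded by Nfe2l2, is a transcription factor that KEAP1 holds in the cytosol and marks for breakdown. Oxidants and electrophiles release it, and with small MAF proteins it binds antioxidant response elements near genes for glutathione synthesis, conjugation and quinone reduction. Heme oxygenase 1 (Hmox1), which BACH1 represses and NRF2 induces, opens heme to biliverdin, iron and carbon monoxide, and biliverdin reductase A (Blvra) turns biliverdin into bilirubin. In the kidney, Hmox1 is known as a gene induced by injury and by filtered heme proteins.

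The arrays were alike, with medians from 5.72 to 5.77 on the log2 scale and pairwise correlations from 0.985 to 0.997. Markers fixed for the proximal tubule (9 of 9 measured) had mean log2 values between 11.4 and 11.7 on every array, and those of the thick ascending limb (6 of 6 measured) between 10.6 and 11.0. The thick ascending limb list differed by strain after uninephrectomy, with 10.58 to 10.72 in uninephrectomized SBH/y and 10.80 to 11.04 in uninephrectomized SBN/y. With both kidneys its ranges overlapped, 10.62 to 10.73 in SBH/y and 10.71 to 10.90 in SBN/y. Whole tissue was measured, so fewer cells of a type and less RNA per cell cannot be told apart. Hmox1 lay below its array's median on all 7 arrays of 3 groups and on 1 of 7 arrays of uninephrectomized SBH/y. Gsta3l1 lay below it on 6 of 7 arrays of SBN/y with both kidneys, 2 of 7 each of uninephrectomized SBN/y and of SBH/y with both kidneys, and 0 of 7 of uninephrectomized SBH/y. Signal over background was not measured, and folds of these dim probe sets are those of the RMA values. Whether sequence variants between the strains lie under the probes was not tested, and this bears on each strain difference below.

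The promoter windows of the members were read from RefSeq's GRCr8 assembly, from 250 bases before to 50 after an annotated start, and 8 of the 9 genes matched, with 9 windows because Txnrd1 has 2. They are shown because the antioxidant response element is the sequence that defines the pathway. Its core was searched as TGACNNNGC on both strands, so that GCNNNGTCA is the same core on the other strand, and the AP-1 site as TGACTCA on both strands, which can overlap the core. The core was found in 5 of the 9 windows, against 12.1% of 33469 windows of 300 bases in the genome, and the AP-1 site in 1, against 4.63% of all windows. In the 4 windows below, written 5′ to 3′ along the gene, capitals mark the core.
Gstp1, chr1:210769656-210769955, minus strand: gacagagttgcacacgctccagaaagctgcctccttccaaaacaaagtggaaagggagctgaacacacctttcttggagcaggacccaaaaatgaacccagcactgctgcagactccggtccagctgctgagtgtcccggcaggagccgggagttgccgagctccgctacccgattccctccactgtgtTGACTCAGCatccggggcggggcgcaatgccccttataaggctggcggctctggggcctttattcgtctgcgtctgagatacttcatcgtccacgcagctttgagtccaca
Gpx2, chr6:101229984-101230283, minus strand: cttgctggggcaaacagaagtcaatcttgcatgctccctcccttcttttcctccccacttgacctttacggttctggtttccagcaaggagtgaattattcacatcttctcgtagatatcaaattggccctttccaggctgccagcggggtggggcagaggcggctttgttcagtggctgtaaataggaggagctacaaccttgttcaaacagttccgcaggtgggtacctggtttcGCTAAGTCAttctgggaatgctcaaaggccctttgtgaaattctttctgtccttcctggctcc
Txnrd1, chr7:22755855-22756154, minus strand: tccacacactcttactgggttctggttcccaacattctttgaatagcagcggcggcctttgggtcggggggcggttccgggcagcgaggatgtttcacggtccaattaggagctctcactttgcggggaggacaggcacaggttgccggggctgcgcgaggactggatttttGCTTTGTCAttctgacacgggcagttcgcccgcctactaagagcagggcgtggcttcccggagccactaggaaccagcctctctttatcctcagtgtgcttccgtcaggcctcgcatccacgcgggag
Blvra, chr3:134802660-134802959, plus strand: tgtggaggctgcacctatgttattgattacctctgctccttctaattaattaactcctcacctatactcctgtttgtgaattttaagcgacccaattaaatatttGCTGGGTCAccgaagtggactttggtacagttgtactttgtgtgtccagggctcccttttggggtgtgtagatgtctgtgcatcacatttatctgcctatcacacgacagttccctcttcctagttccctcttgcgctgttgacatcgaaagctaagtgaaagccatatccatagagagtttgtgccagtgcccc
In Gstp1 the core TGACTCAGC holds the AP-1 site TGACTCA and ends 53 bases before the start. The core of Gpx2 ends 5 bases before the start, that of Txnrd1 70 bases and that of Blvra 137 bases. The start used for Gpx2 is the outer end of the annotated gene. Those used for Gstp1, Txnrd1 and Blvra lie inside the annotated gene. The window of Gclm also held a core, GCTTAGTCA, and those of Nqo1, Gclc, Gsta3l1 and the other Txnrd1 window held none in these bases. Hmox1 had no window here. A match of letters is a description, and whether any factor binds there was not measured.

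After uninephrectomy in SBH/y, 5 of the 9 genes were higher and 1 was lower than in SBH/y with both kidneys, against 3.33% of all probe sets called higher and 4.91% lower. Gsta3l1, Hmox1, Gstp1, Gpx2 and Nqo1 rose, by 1.20-fold to 2.11-fold, Gclc fell slightly, and Blvra, Gclm and Txnrd1 did not pass the test. The median log2 difference of the 9 genes was 0.26, against 0.01 over all probe sets. Calls are those of limma with a Benjamini-Hochberg adjusted p under 0.05 over all 31042 probe sets, and the value after a log2 difference is its standard error. All probe sets include dim ones and ones without a gene symbol. Their shares are therefore not a like comparator for genes read from their brightest probe set, here and below.

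Hmox1, the first step of heme breakdown, had log2 values between 5.61 and 6.30 (median 5.99) in uninephrectomized SBH/y, against 5.06 to 5.69 (median 5.32) in SBH/y with both kidneys. Of the 7 arrays with 1 kidney, 6 lay above every array with both kidneys, and replicate 2 lay within their range. The log2 difference was 0.62 ± 0.09, a fold of 1.53, with a limma adjusted p of 4.03e-05 (n = 7 arrays per group). Blvra, the next step, had values between 8.97 and 9.47 (median 9.23) after uninephrectomy and 9.21 to 9.59 (median 9.39) with both kidneys. The 2 ranges overlapped, and its log2 difference of -0.17 ± 0.07 was not called (adjusted p 0.162).

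Among the conjugating enzymes, Gstp1, the pi-class glutathione S-transferase, had values between 11.63 and 12.10 (median 11.86) in uninephrectomized SBH/y, against 11.25 to 11.41 (median 11.30) in SBH/y with both kidneys. The ranges did not overlap, which held for 0.883% of all probe sets in this direction. Its log2 difference was 0.55 ± 0.07 (fold 1.46, limma adjusted p 4.52e-06). Gsta3l1, an alpha-class glutathione S-transferase by its name, had values between 6.37 and 7.38 (median 7.13) after uninephrectomy and between 5.34 and 6.64 (median 5.84) with both kidneys. Here 6 of 7 arrays with 1 kidney lay above all arrays with both, and the exception was replicate 6, the lowest of its group. The log2 difference was 1.07 ± 0.18, a fold of 2.11 with a 95% interval on the log2 scale of 0.71 to 1.44 (limma adjusted p 0.000184). Alpha-class genes of the rat are similar in sequence, and whether this probe set also reads a relative was not tested.

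Gpx2, a selenium-dependent glutathione peroxidase known mainly from epithelia of the gut, had values between 8.39 and 8.82 (median 8.63) in uninephrectomized SBH/y, against 8.15 to 8.50 (median 8.36) in SBH/y with both kidneys. The log2 difference was 0.27 ± 0.07 (fold 1.21, limma adjusted p 0.0144), with 6 of 7 arrays above the other range. Nqo1, the quinone reductase often used as a readout of NRF2 activity, had values between 7.73 and 8.21 (median 7.90) after uninephrectomy and 7.42 to 7.88 (median 7.72) with both kidneys. With 5 of 7 arrays above the other range, its log2 difference was 0.26 ± 0.06 (fold 1.20, limma adjusted p 0.0103). Fitted to the 2 groups alone, without the SBN/y arrays in the spread, the Nqo1 difference was not called (adjusted p 0.0654).

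The genes of glutathione synthesis were not higher. Gclc, the catalytic subunit of glutamate-cysteine ligase, had values between 12.70 and 12.94 (median 12.80) in uninephrectomized SBH/y, against 12.89 to 13.01 (median 12.94) in SBH/y with both kidneys. It was lower by a log2 difference of -0.14 ± 0.05 (limma adjusted p 0.0451), and the call was lost in 12 of 28 fits that left out 1 array, with adjusted p between 0.0237 and 0.107, and after median centring of the arrays (adjusted p 0.0738). For any difference of 2 groups, leaving out an array of the other groups changes only the spread, not the difference. The 28 fits include such arrays. The second probe set of Gclc had no overlap between the groups, with values between 12.37 and 12.64 against 12.71 to 12.80, as in 1.07% of all probe sets in this direction, and a log2 difference of -0.25 ± 0.05 (limma adjusted p 0.0021). Gclm, the modifier subunit, differed by 0.08 ± 0.05 (adjusted p 0.416). Txnrd1, the cytosolic thioredoxin reductase, differed by -0.04 ± 0.05 (95% interval -0.15 to 0.07), and its second probe set by -0.18 ± 0.08 (adjusted p 0.168).

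**Figure D1:**
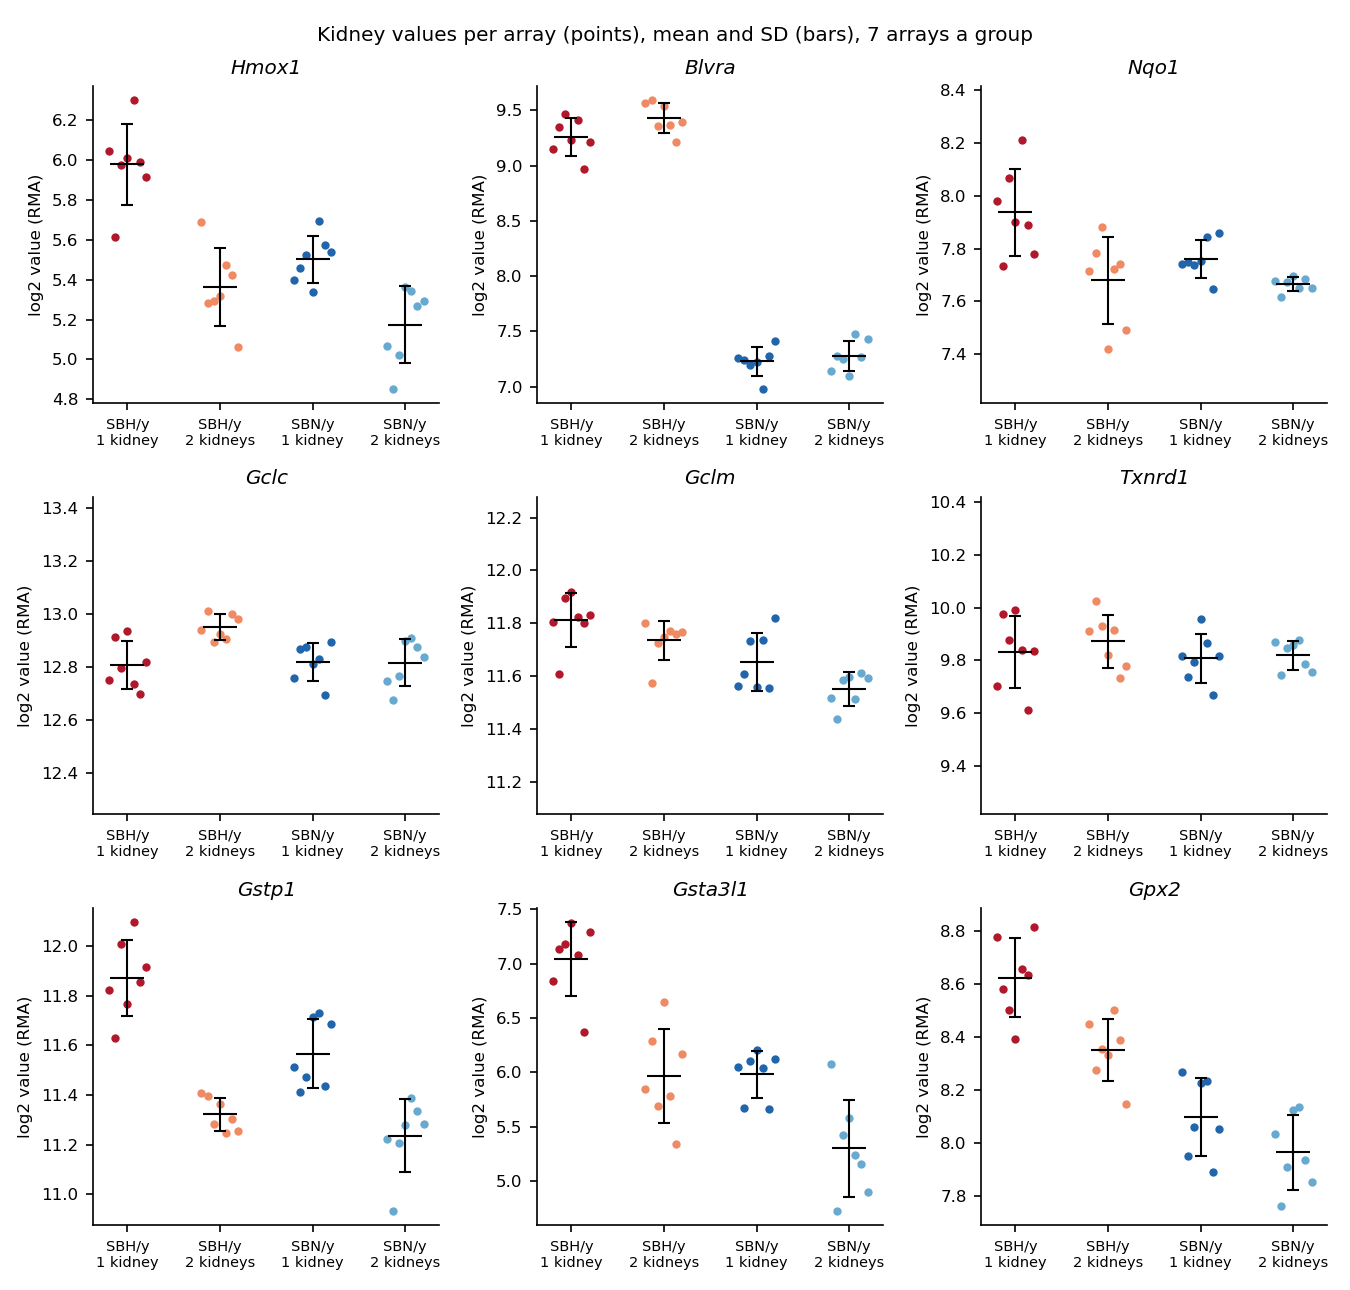
Log2 RMA value (vertical axis) of the 9 genes on each array, in uninephrectomized SBH/y, SBH/y with both kidneys, uninephrectomized SBN/y and SBN/y with both kidneys. Points are arrays, horizontal bars group means and whiskers 1 SD of 7 arrays; Gstp1 does not overlap between SBH/y with 1 and with 2 kidneys, and all Blvra values of SBH/y are at 8.97 or more and all of SBN/y at 7.48 or less.

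The same operation in SBN/y moved 1 of the 9 genes past the threshold, against 0.222% of all probe sets called higher and 0.242% lower. Gstp1 was higher in uninephrectomized SBN/y, with values between 11.41 and 11.73 (median 11.51), against 10.93 to 11.39 (median 11.28) in SBN/y with both kidneys. The ranges did not overlap, as in 0.229% of all probe sets in this direction, and the log2 difference was 0.33 ± 0.07 (fold 1.26, limma adjusted p 0.022). The call was lost without uninephrectomized SBN/y replicate 4, 5 or 7, with adjusted p between 0.013 and 0.0582 over the 28 fits that left out 1 array, and when only the 2 groups were fitted (0.072). Hmox1 had values between 5.34 and 5.69 (median 5.53) in uninephrectomized SBN/y, against 4.85 to 5.36 (median 5.27) with both kidneys, and 6 of 7 arrays lay above the other range. Its log2 difference of 0.33 ± 0.09 was not called (limma adjusted p 0.107), but it was with the replicate number as a block in the fit (limma adjusted p 0.0348). Gsta3l1 differed by 0.68 ± 0.18 (limma adjusted p 0.0882), with values between 5.66 and 6.21 against 4.73 to 6.08, of which replicate 1 with both kidneys was the highest. Without that array Gsta3l1 was called, with a log2 difference of 0.81 and an adjusted p of 0.0214. It was also called with the replicate number as a block (limma adjusted p 0.0283). Gpx2 differed by 0.13 ± 0.07, Gclm by 0.10 ± 0.05, Nqo1 by 0.10 ± 0.06, Gclc by 0.00 ± 0.05, Txnrd1 by -0.01 ± 0.05 and Blvra by -0.05 ± 0.07, with adjusted p between 0.582 and 0.997. The median log2 difference of the 9 genes was 0.10, against 0.001 over all probe sets.

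Whether uninephrectomy acted differently in the strains was tested by the interaction, the SBH/y difference less the SBN/y difference. In limma 0 of the 9 genes passed the adjusted threshold, against 1.41% of all probe sets. The 3 with the smallest p were Hmox1, Gstp1 and Gclc. Hmox1 had an interaction of 0.29 ± 0.13 (95% interval 0.02 to 0.55, adjusted p 0.357). Gstp1 had 0.22 ± 0.10 (0.02 to 0.42, adjusted p 0.351) and Gclc -0.15 ± 0.06 (-0.28 to -0.02, adjusted p 0.338). These intervals are not adjusted for the number of probe sets tested. For Gsta3l1 the interaction was 0.39 ± 0.25, with a 95% interval of -0.13 to 0.91. The calls in SBH/y that are missing in SBN/y are not shown to be particular to SBH/y.

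Between the strains after uninephrectomy, 7 of the 9 genes were higher in SBH/y than in SBN/y and 0 lower, against 11.1% of all probe sets called higher and 10.3% lower. With both kidneys in place 5 were higher and 0 lower, against 9.64% called higher and 8.31% lower. Blvra, Gsta3l1, Gpx2 and Gclm were higher in both states. The median log2 difference of the 9 genes was 0.30 after uninephrectomy and 0.19 with both kidneys, against -0.01 and -0.02 over all probe sets.

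Blvra carried the largest strain difference of the 9 genes. Uninephrectomized SBH/y had values between 8.97 and 9.47, against 6.98 to 7.41 (median 7.24) in uninephrectomized SBN/y, a log2 difference of 2.03 ± 0.07 (fold 4.07, limma adjusted p 1.47e-19). With both kidneys SBH/y lay between 9.21 and 9.59, against 7.10 to 7.48 (median 7.27) in SBN/y, a log2 difference of 2.15 ± 0.07 (fold 4.44, limma adjusted p 3.33e-20). No array of one strain overlapped the other. Blvrb, which encodes the other biliverdin reductase, also known as flavin reductase, differed in the opposite direction, by -0.56 ± 0.08 after uninephrectomy and -0.72 ± 0.08 with both kidneys (limma adjusted p 4.48e-06 and 6.04e-08). Hmox1 had values between 5.61 and 6.30 in uninephrectomized SBH/y, against 5.34 to 5.69 (median 5.53) in uninephrectomized SBN/y, with 6 of 7 SBH/y arrays above all of SBN/y. It was higher in SBH/y by 0.47 ± 0.09 (fold 1.39, limma adjusted p 0.000164). With both kidneys its log2 difference of 0.19 ± 0.09 was not called (adjusted p 0.161).

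Gpx2 separated the strains completely in both states. After uninephrectomy the SBH/y arrays lay between 8.39 and 8.82, against 7.89 to 8.27 (median 8.06) in SBN/y, a log2 difference of 0.53 ± 0.07 (fold 1.44, limma adjusted p 1.12e-06). With both kidneys the SBH/y arrays lay between 8.15 and 8.50, against 7.76 to 8.14 (median 7.93), a difference of 0.39 ± 0.07 (fold 1.31, limma adjusted p 0.000162). Gsta3l1 differed by 1.06 ± 0.18 after uninephrectomy (fold 2.08, limma adjusted p 3.49e-05), with no overlap between 6.37 to 7.38 in SBH/y and 5.66 to 6.21 (median 6.05) in SBN/y. With both kidneys its ranges overlapped and it differed by 0.67 ± 0.18 (limma adjusted p 0.00797). Complete separation upward was thus seen for 3 of 9 genes after uninephrectomy and for 2 of 9 with both kidneys, against 4.94% and 3.65% of all probe sets. Gstp1, with values between 11.63 and 12.10 in uninephrectomized SBH/y against 11.41 to 11.73 in uninephrectomized SBN/y, was higher by 0.30 ± 0.07 (fold 1.24, limma adjusted p 0.00111) with 6 of 7 arrays above the SBN/y range. With both kidneys it differed by 0.09 ± 0.07 (adjusted p 0.433).

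The strain differences of the remaining genes were small. Gclm had values between 11.61 and 11.92 (median 11.82) in uninephrectomized SBH/y, against 11.55 to 11.82 (median 11.61) in uninephrectomized SBN/y. It was higher by 0.16 ± 0.05 (limma adjusted p 0.0215), a call lost in 5 of 28 fits that left out 1 array, and with both kidneys by 0.19 ± 0.05 (limma adjusted p 0.00864), where the values lay between 11.57 and 11.80 against 11.44 and 11.61. Gclc was higher in SBH/y with both kidneys by 0.14 ± 0.05 (limma adjusted p 0.0365), where the SBH/y arrays lay between 12.89 and 13.01 and those of SBN/y between 12.67 and 12.91. This call was lost in 7 of 28 fits that left out 1 array (adjusted p 0.0246 to 0.0892), and every loss came from an array of the groups compared. The second Gclc probe set was higher by 0.22 ± 0.05, with no overlap (limma adjusted p 0.00258). After uninephrectomy Gclc differed by -0.01 ± 0.05, not called. Nqo1 was near the threshold after uninephrectomy, with values between 7.73 and 8.21 in SBH/y and between 7.65 and 7.86 in SBN/y, a log2 difference of 0.18 ± 0.06 and a limma adjusted p of 0.0495. That call was lost in 21 of 28 fits that left out 1 array (adjusted p 0.0171 to 0.15) and after quantile normalization (0.0506). With both kidneys Nqo1 differed by 0.01 ± 0.06. Txnrd1, whose values over all 4 groups lay between 9.61 and 10.02, differed by 0.03 ± 0.05 after uninephrectomy and by 0.05 ± 0.05 with both kidneys, not called on either probe set.

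**Figure D2:**
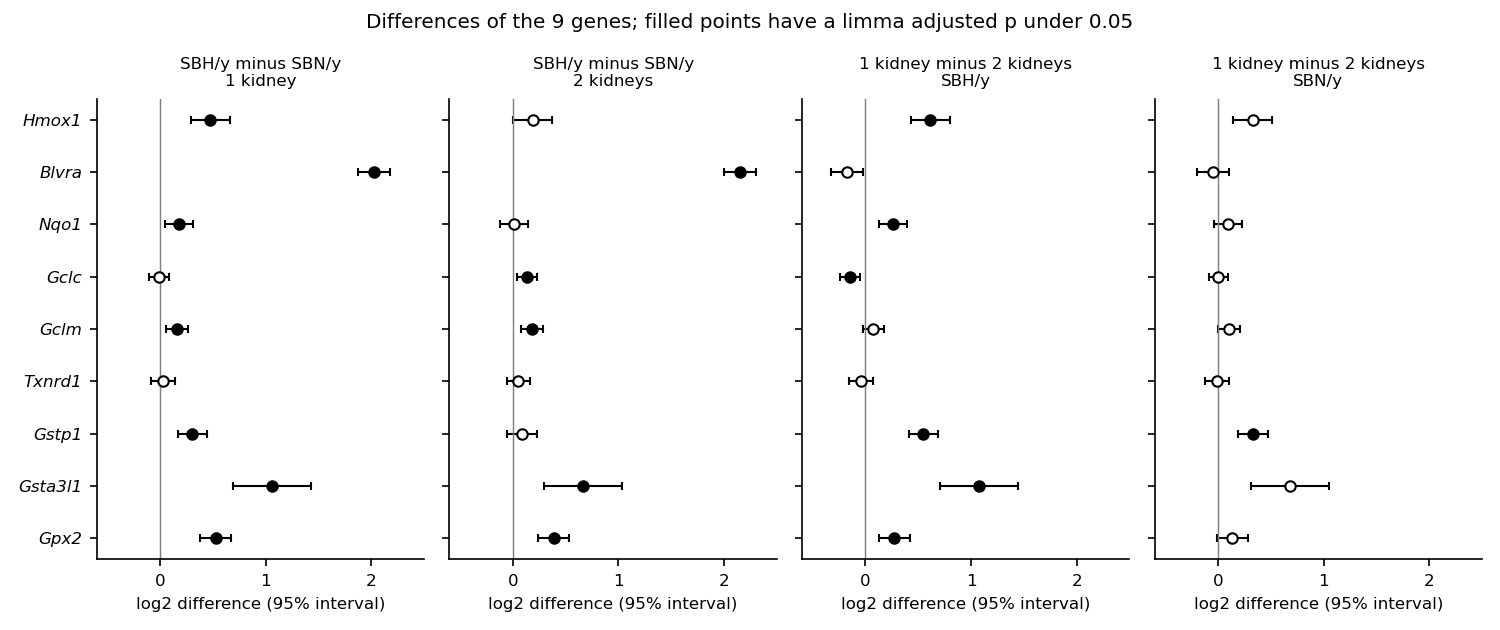
Log2 difference (horizontal axis) of each of the 9 genes with its 95% interval from limma, for SBH/y minus SBN/y with 1 and with 2 kidneys and for 1 minus 2 kidneys in SBH/y and in SBN/y. Filled points passed an adjusted p under 0.05; Blvra stands at 2.03 and 2.15 between the strains, and 1 point, Gstp1, is filled in the last panel.

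The order of the group means put uninephrectomized SBH/y highest for Hmox1, Nqo1, Gstp1, Gsta3l1, Gpx2 and Gclm. For Hmox1, Nqo1, Gstp1 and Gsta3l1 uninephrectomized SBN/y came next, followed by SBH/y and then SBN/y with both kidneys. Hmox1 averaged 5.98 ± 0.20, 5.50 ± 0.12, 5.36 ± 0.19 and 5.17 ± 0.19 (SD, n = 7 each) in that order of groups, and the ranges of every pair of neighbours overlapped. Gstp1 averaged 11.87 ± 0.15, 11.57 ± 0.14, 11.32 ± 0.07 and 11.24 ± 0.15, and among neighbours the second and the third did not overlap. For Gsta3l1 only the first 2 groups in the order did not overlap. Gpx2 and Gclm instead had both SBH/y groups above both SBN/y groups, and all neighbours overlapped. Blvra had both SBH/y groups above both SBN/y groups with no overlap, with 9.43 ± 0.14 in SBH/y with both kidneys, 9.26 ± 0.17 in uninephrectomized SBH/y, 7.28 ± 0.14 in SBN/y with both kidneys and 7.23 ± 0.13 in uninephrectomized SBN/y. For Gclc and Txnrd1 all neighbours overlapped.

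The wider pathway was read from 6 lists with 115 of 124 genes measured under their own symbol. Their counts stand against the shares of all probe sets called, which were 3.33% higher and 4.91% lower after uninephrectomy in SBH/y, 11.1% and 10.3% between the strains after uninephrectomy, and 9.64% and 8.31% between them with both kidneys. These shares cover all 31042 probe sets, 9780 of them without a gene symbol. A list instead reads each gene from its brightest probe set. With dim probe sets dropped, 18625 were tested, and 1090 were called higher and 1723 lower after uninephrectomy in SBH/y. Between the strains these were 3158 and 2979 after uninephrectomy, and 2829 and 2231 with both kidneys. Larger shares were thus called among brighter probe sets, and the lists were not tested against these. Of 11 regulators, which hold NRF2 itself, KEAP1 and its ubiquitin ligase partners, BACH1 and the small MAF genes, 2 (18.2%) rose after uninephrectomy in SBH/y and 0 fell (median log2 difference 0.09, against 0.01 over all probe sets). They were Mafg, a small MAF partner of NRF2, at 0.27 ± 0.05, and Rbx1, a subunit of cullin ubiquitin ligases, at 0.20 ± 0.04 (limma adjusted p 0.000583 and 0.000629). In SBN/y 0 of 11 passed in limma, Mafg with 0.03 ± 0.05 and Rbx1 with 0.02 ± 0.04. The interaction did not pass for either, with 0.25 ± 0.07 for Mafg and 0.18 ± 0.05 for Rbx1 (limma adjusted p 0.0792 and 0.0738). Between the strains, 3 of 11 (27.3%) were higher in SBH/y after uninephrectomy, among them Maff at 0.41 ± 0.11 (limma adjusted p 0.00432). With both kidneys 1 (9.09%), Maff, was higher, near the share of all probe sets. Maff was dim, with group means from 4.46 to 4.86, below the lowest array median of 5.72.

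Of 32 other enzymes and transporters counted as NRF2 targets, 5 (15.6%) rose and 1 (3.12%) fell after uninephrectomy in SBH/y (median 0.07), and 0 passed in SBN/y. Akr7a3, an aldo-keto reductase that detoxifies aldehydes, was higher by 0.38 ± 0.06 in SBH/y (limma adjusted p 0.000119), and the interaction of 0.32 ± 0.09 did not pass (adjusted p 0.0571). The other 4 that rose were Srxn1, Pgd, Cbr1 and Abcc4, and Nqo2 fell. The interaction passed for 2 of 32 (6.25%, against 1.41% of all probe sets). Abcc4, an exporter of organic anions, differed by 0.25 ± 0.05 in SBH/y and -0.15 ± 0.05 in SBN/y, an interaction of 0.40 ± 0.08 (limma adjusted p 0.00547). The SBN/y change was not called (limma adjusted p 0.323). Tkt, the transketolase of the pentose phosphate pathway, differed by 0.14 ± 0.05 in SBH/y and -0.14 ± 0.05 in SBN/y, neither of them called. Its interaction was 0.27 ± 0.07 (limma adjusted p 0.0415). With both kidneys the 2 genes were lower in SBH/y than in SBN/y. Abcc4 differed there by -0.34 ± 0.05 and Tkt by -0.22 ± 0.05 (limma adjusted p 1.13e-05 and 0.0015). After uninephrectomy each differed between the strains by 0.05 ± 0.05, not called. Between the strains 10 of 32 (31.2%) were higher and 3 (9.38%) lower in SBH/y after uninephrectomy, and 7 (21.9%) higher and 5 (15.6%) lower with both kidneys. The carbonyl reductase Cbr3 was higher by 1.38 ± 0.11 after uninephrectomy and by 1.21 ± 0.11 with both kidneys. The canalicular transporter Abcc2, which exports conjugates, bilirubin glucuronide among them, was higher by 0.65 ± 0.08 and 0.51 ± 0.08 in the same order. Akr1b8, another aldo-keto reductase, went the opposite way, by -0.84 ± 0.07 and -0.66 ± 0.07. These 6 differences had limma adjusted p of at most 2.66e-05.

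Of 20 other glutathione S-transferases, 1 (5%) was higher and 8 (40%) were lower in SBH/y than in SBN/y after uninephrectomy, and 2 (10%) higher and 7 (35%) lower with both kidneys. Gsta3, the relative after which Gsta3l1 is named, differed by -1.21 ± 0.10 and -0.96 ± 0.10, opposite in sign to Gsta3l1, and Gstt2 by -0.66 ± 0.07 and -0.69 ± 0.07. Gsto1, of the omega class, was higher by 0.43 ± 0.03 and 0.42 ± 0.03. After uninephrectomy 1 rose (Gstt3, 0.21 ± 0.06, limma adjusted p 0.0164) and 1 fell (Gsta4) in SBH/y, and 0 passed in SBN/y. Of 18 genes of the glutathione cycle and peroxidases, 2 (11.1%) rose and 1 (5.56%) fell in SBH/y after uninephrectomy. Chac1, a glutathione-degrading enzyme, rose by 0.76 ± 0.14 and Ggct, a cyclotransferase that acts on gamma-glutamyl amino acids, fell by 0.68 ± 0.09. The interaction of Ggct, -0.58 ± 0.12, passed with a limma adjusted p of 0.0108, while those of Chac1 (0.70 ± 0.20, adjusted p 0.0633) and Gstt3 (0.22 ± 0.08, adjusted p 0.197) did not pass.

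Of 24 measured genes of heme and iron handling other than the members, 1 (4.17%) rose and 2 (8.33%) fell after uninephrectomy in SBH/y, shares near those of all probe sets, and 1 fell in SBN/y. Por, the reductase that supplies electrons to heme oxygenase and to cytochromes P450, was higher by 0.55 ± 0.08 in SBH/y and differed by -0.04 ± 0.08 in SBN/y, and its interaction of 0.59 ± 0.12 passed (limma adjusted p 0.00913). Abcg2, an exporter of porphyrins and urate, fell in both strains, by 0.20 ± 0.06 in SBH/y and in SBN/y by 0.25 ± 0.06 (limma adjusted p 0.0242 and 0.0305). Between the strains 4 of 24 (16.7%) were higher and 6 (25%) lower in SBH/y after uninephrectomy, and 1 (4.17%) higher and 4 (16.7%) lower with both kidneys. The transferrin receptor gene Tfrc differed by -0.65 ± 0.09 after uninephrectomy and -0.68 ± 0.09 with both kidneys. Of 10 heme synthesis genes, 2 (20%) were higher and 5 (50%) lower in SBH/y after uninephrectomy, and 2 (20%) higher and 4 (40%) lower with both kidneys. Alas1, the rate-limiting synthase, differed by -0.47 ± 0.06 after uninephrectomy and -0.33 ± 0.06 with both kidneys, and ferrochelatase, Fech, the last step, by 0.32 ± 0.05 and 0.33 ± 0.05. Each of these strain differences passed in limma.

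**Figure D3:**
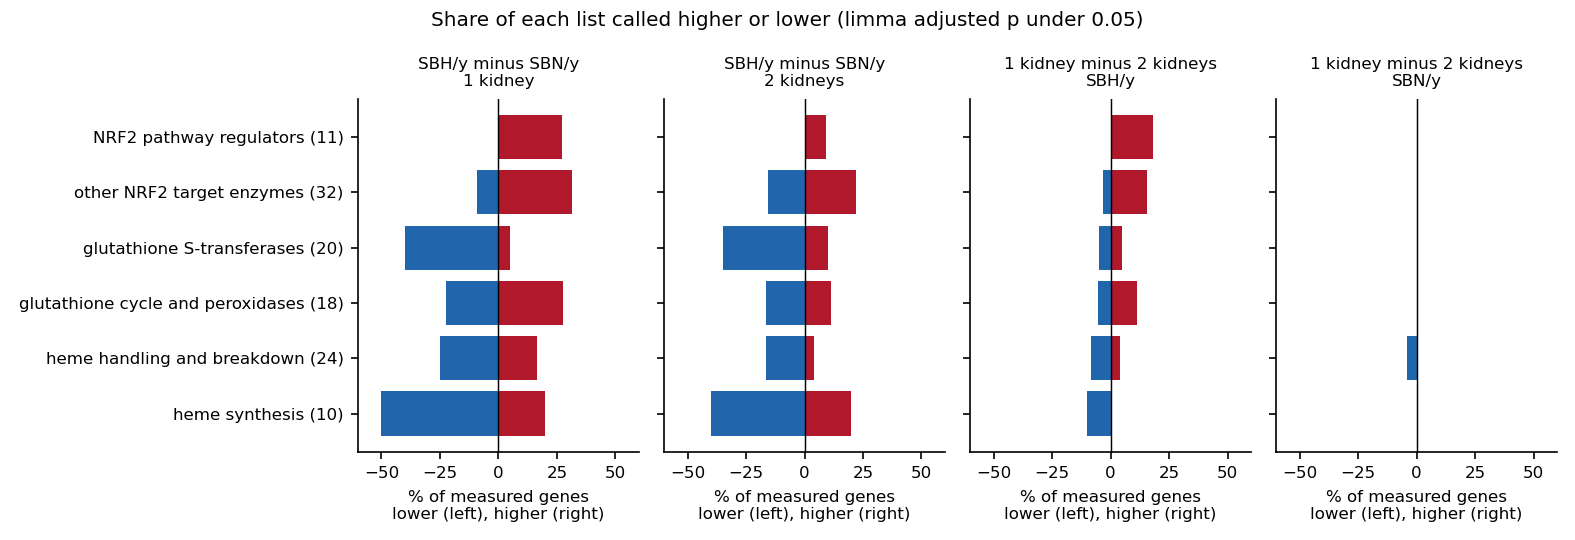
Share of the measured genes of each list (number in brackets) called higher, to the right, or lower, to the left, at a limma adjusted p under 0.05, as a percent on the horizontal axis. Between the strains more glutathione S-transferases and heme synthesis genes were called lower than higher in SBH/y, and in SBN/y 1 gene of the 6 lists, Abcg2, passed after uninephrectomy.

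Markers of other cell types moved with some of these results. After uninephrectomy in SBH/y, 5 of 8 measured markers of injured proximal tubule (62.5%) rose, Havcr1, Spp1, Krt8, Vim and Cd44, and 0 fell. Of all probe sets, 3.33% were called higher and 4.91% lower in this comparison. The mean log2 value of the injured proximal tubule list lay between 7.92 and 8.48 in uninephrectomized SBH/y, against 7.48 to 7.63 in SBH/y with both kidneys, 7.45 to 7.72 in uninephrectomized SBN/y and 7.42 to 7.60 in SBN/y with both kidneys. Havcr1 weighs most in this mean, with a difference of 2.79 ± 0.23 in SBH/y, the largest of the list. Krt18 (-0.06 ± 0.06), Vcam1 (-0.06 ± 0.08) and Lcn2 (0.10 ± 0.09) were not called. Of 12 macrophage markers, 3 (25%) rose and 0 fell in SBH/y (Csf1r, C1qb and Mrc1). Cd163, the receptor for hemoglobin complexes, was dim, with means of 3.28 after uninephrectomy and 3.23 with both kidneys. Its difference of 0.05 ± 0.07 was not called (limma adjusted p 0.716). The macrophage list lay between 6.88 and 7.22 in uninephrectomized SBH/y, 6.79 and 7.13 in SBH/y with both kidneys, 6.66 and 6.84 in uninephrectomized SBN/y and 6.57 and 6.87 in SBN/y with both kidneys. Between the strains after uninephrectomy, 11.1% of all probe sets were called higher in SBH/y and 10.3% lower. Injured proximal tubule markers had 5 of 8 (62.5%) higher and 0 lower (Havcr1 by 2.40 ± 0.23, limma adjusted p 2.07e-09). Proximal tubule markers had 5 of 9 (55.6%) higher and 0 lower, and collecting duct markers 1 of 8 (12.5%) higher and 4 (50%) lower. With both kidneys, 9.64% of all probe sets were called higher and 8.31% lower. These lists then had 1 (12.5%) higher and 1 (12.5%) lower, 1 (11.1%) higher and 0 lower, and 1 (12.5%) higher and 3 (37.5%) lower. The single calls lay near the shares of all probe sets. Macrophage markers had 8 of 12 (66.7%) higher and 2 (16.7%) lower in SBH/y after uninephrectomy. With both kidneys 6 (50%) were higher and 2 (16.7%) lower. Cd163 and Mrc1 were the 2 lower in each state, Cd163 with -0.25 ± 0.07 and -0.19 ± 0.07 (limma adjusted p 0.00659 and 0.0487). The thick ascending limb list had 5 of 6 (83.3%) lower in SBH/y after uninephrectomy and 3 of 6 (50%) with both kidneys. The part of these lists in the differences of Blvra, Gclm, Hmox1, Gstp1, Gsta3l1, Gpx2 and Nqo1 was not tested. Markers of red blood cells, the cells that carry most heme, had 0 of 6 higher and 1 (16.7%) lower in each of these comparisons. It was Slc4a1, which intercalated cells of the collecting duct also express. Hbb differed by -0.27 ± 0.19 and Alas2 by -0.20 ± 0.22 in SBH/y after uninephrectomy, not called. Urothelial markers, 6 of 7 measured, had 0 called after uninephrectomy in SBH/y by limma, with list means between 4.61 and 5.04 in uninephrectomized SBH/y and 4.70 and 4.97 in SBH/y with both kidneys.

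The genes most like each member were taken by Pearson's r over the 28 arrays among 14208 other genes, as a description, since the group differences and the arrays are shared. For Hmox1 they were Vim, which encodes vimentin (r = 0.87), Ywhah (0.85) and Fnip2 (0.85). For Gstp1 they were Dynll2 (0.90), Creld2 (0.89) and Adamts8 (0.86). Gsta3l1 went most closely with Cps1, a urea cycle enzyme (0.95), Pstpip1 (0.93) and Sult1b1, a sulfotransferase (0.92), and Gpx2 with Hexa (0.92), Fgb (0.91) and Akr7a3 (0.91). Blvra went with Cyp4a1, Mis18a and Agmat (0.99 each), genes that also divide the strains. With the group means subtracted, so that only the spread within groups counts, the closest gene was Gstt3 for Hmox1 (r = 0.69), Nat8 for Gstp1 (0.80), followed by Akr7a3 (0.79), Polr2d for Gsta3l1 (0.88), Nfasc for Gpx2 (0.68) and Mrps9 for Blvra (0.78). For Txnrd1, which no comparison called, the closest genes within groups were Myo18a (0.85), Psph (0.83) and Ntn1 (0.82). For Gclc the closest within groups was Oaz2 (0.79), for Gclm Prps1l3 (0.64) and for Nqo1 Vopp1 (0.71).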

How the data were processed

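The authors deposited 1 table of log2 values for 31099 probe sets on 28 arrays. Per the submitters' processing notes, GCOS and RMA were used, and their versions and whether all arrays were normalized together are not given in the sources used here. RMA log2 values cannot show differences in total RNA. After 57 control probe sets were left out, 31042 were tested, of which 20826 carried 1 gene symbol in GEO's platform table, and gene identifiers gave current RefSeq GRCr8 symbols for 20758. The 4 groups were fitted together to the log2 values (R 4.3.3, limma 3.58.1, lmFit and eBayes), and p-values were adjusted by Benjamini-Hochberg over all probe sets, with a threshold of 0.05. The fit was also run on simulated data with independent normal values on each array, which cannot show the effect of a shared source of arrays. The number of arrays, 7 per group, limits the precision.

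All members were named, with up to 4 genes of each other list by smallest p and the 3 genes most like a member. Marker genes and genes called in a list are named as well, chosen after their values were seen. The members, lists and tests were chosen with earlier results of these data known. Alternatives were quantile normalization, median centring, a filter that dropped 40% of probe sets as dim, trended and robust variance, fits of the compared groups alone, the mean of a gene's probe sets, the replicate number as a block and leaving out each array.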

Additional observations from a re-analysis of the deposited data

Results flagged for a closer look

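Of 36 groups of 7 values (9 genes in 4 groups), 3 held an array set apart from the rest by more than Dixon's 95% limit, where chance gives about 1 in 20. All 3 were the lowest array of their group and carried the replicate number 2. Gclm stood at 11.61 in replicate 2 of uninephrectomized SBH/y and at 11.57 in replicate 2 of SBH/y with both kidneys, below the other 6 arrays of each group. Gstp1 stood at 10.93 in replicate 2 of SBN/y with both kidneys. Without these arrays the calls of Gclm and Gstp1 in the comparisons they enter were the same.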

How the results depend on the processing

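Of 306 values of the 9 genes under alternatives other than leaving out an array, 294 kept their direction and side of the threshold. The dim filter, the variance setting, the compared groups alone and the block leave the log2 difference itself unchanged. The mean of probe sets does the same for genes with 1 probe set. In these fits only the side of the threshold could change. The 2 values that turned sign were near 0: Nqo1 between the strains with both kidneys, -0.00096 after quantile normalization, and Gclc after uninephrectomy in SBN/y, -0.013 as the mean of its probe sets. The number of members called after uninephrectomy in SBN/y was 0 when only the compared groups were fitted and 3 with the replicate number as a block, which added Hmox1 (adjusted p 0.0348) and Gsta3l1 (0.0283). With 1 array left out it lay between 0 and 2. Fits of the compared groups alone also lost Nqo1 and Gclm between the strains after uninephrectomy (adjusted p 0.0647 and 0.0567), Gclc between the strains with both kidneys (0.0629) and Nqo1, Gclc and Gstp1 after uninephrectomy as given above, Gclc with 0.0759. Among single arrays, the Gclm strain call rested on uninephrectomized SBH/y replicates 3 and 4 and uninephrectomized SBN/y replicates 1, 4 and 6. The Gclc strain call rested on replicates 1, 2, 6 and 7 of SBH/y and 1, 2 and 3 of SBN/y, all with both kidneys. The Gclc call after uninephrectomy rested on replicates 1, 3, 5, 6 and 7 of uninephrectomized SBH/y, 1, 2, 3, 4, 6 and 7 of SBH/y with both kidneys and 4 of uninephrectomized SBN/y. The Nqo1 strain call held in 7 of 28 such fits, and the cause of these losses was not tested. The block also moved the calls over all probe sets to 280, against 144, after uninephrectomy in SBN/y and to 812, against 439, for the interaction, and the compared groups alone gave 60 in the first. The labels do not say what the numbers mark, and the fit without the block was kept. Of 42 same-numbered pairs, 24 correlated above 0.1 in their deviations from group means (median 0.16, range -0.09 to 0.59). The correlations of differently numbered pairs were not set beside these, so they do not decide whether a block belongs in the fit. Of 28 arrays, 10 correlated best with one of their own number, where 4 are the average for numbers without meaning, so a shared source of same-numbered arrays is a hint in the data that was not tested further. With 1 array left out, uncalled values that turned sign in some fits ranged from -0.0188 to 0.0582 (Nqo1) between the strains with both kidneys, and from -0.0337 to 0.00625 (Gclc) and -0.000139 to 0.0626 (Txnrd1) after uninephrectomy. The effect of uninephrectomy in SBN/y ranged from -0.0208 to 0.0238 (Gclc) and -0.0373 to 0.0105 (Txnrd1), and the interaction from -0.0531 to 0.00792 (Gclm) and -0.0531 to 0.00967 (Txnrd1).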
